A study of Mus musculus with 8 samples.

Results

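The kinetochore, spindle and mitotic genes encode the proteins that compact, attach, move and separate the chromosomes when a cell divides. They were selected by gene symbol alone. The selection took every gene of the expression table named *Cenp* followed by letters, every gene named *Kif* followed by a number, and 30 mitotic genes by name, of which 0 were missing. It gave 85 of the 24346 genes in the table: 18 *Cenp* genes, 37 *Kif* genes and the 30 named genes. Because symbols rather than functions decided, the selection also took in motors that work in cells at rest. By textbook role, 59 members act in mitosis or at the centriole and are called the mitotic roles, and 26 were kept together as other kinesins and *Cenpv*. The division is not sharp, since *Kif2a* and *Kif2b* of the latter take apart microtubules and also work at the spindle. All 59 members of the mitotic roles and 21 of the other 26 reached the expression minimum and were tested.

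The data come from mouse bone marrow MSCs, adherent stromal cells with the capacity to become osteoblasts, adipocytes and chondrocytes. The study asked how loss of *Dnmt3l*, a cofactor of the enzymes that place new DNA methylation, alters the RNA of these cells before and during bone formation. There were 2 libraries in each of 4 groups: undifferentiated WT, undifferentiated *Dnmt3l* KO, differentiating WT and differentiating *Dnmt3l* KO. All cells had a C57BL/6 background, were at passage 4, came from adult female mice, and were depleted of cells carrying the leukocyte proteins CD11b and CD45. KO cells were homozygous for the tmEnls allele and WT cells came from littermates. Cells of several mice were mixed by genotype, and whether 2 libraries of a group stand for separate mixes is not given in the sources used here. The p-values therefore measure only the spread between these libraries, which may be technical. Undifferentiated cells grew in 20% serum. Differentiating cells had spent 3 days in 10% serum with 50 μM L-ascorbic acid 2-phosphate, 0.1 μM dexamethasone and 10 mM β-glycerophosphate. In the osteogenic protocol these were added at confluence. The density of the undifferentiated cells is not given in the sources used here, so induction, serum and cell density cannot be told apart.

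A dividing cell assembles a kinetochore on the centromere of each chromosome, attaches it to the spindle, and waits at the spindle checkpoint until every chromosome is held from both sides. The anaphase-promoting complex then frees the sister chromatids, and the central spindle places the division plane. Many of these genes are transcribed late in the cell cycle from promoters that combine a CHR element, bound by MuvB and DREAM complexes, with CCAAT boxes bound by NF-Y, and their RNA is scarce in resting cells. Kinesins are motors that move along or take apart microtubules; some work in mitosis, whereas others carry cargo or build cilia.

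*Dnmt3l* was listed at 0 RPKM in all 4 KO libraries and lay between 0.830 and 1.56 RPKM in the 4 WT libraries. RPKM scales reads by transcript length and library size, so levels can be compared between genes. The smallest steps between low values gave an estimated depth of 48.3 to 66.7 M reads per library. At that depth the median member rested on 315 reads in its lowest library, and 12 members had fewer than 100 reads in some library. The stromal genes *Pdgfrb* (52.2 to 84.5 RPKM) and *Thy1* (61.2 to 90.0 RPKM) were present in every library. *Ibsp*, a bone matrix gene, lay between 19.8 and 51.3 RPKM in undifferentiated and between 313 and 729 RPKM in differentiating libraries, whereas *Bglap*, a late osteoblast gene, did not exceed 0.708 RPKM. *Sp7*, a regulator of osteoblast formation, lay between 7.28 and 8.63 RPKM before and between 1.36 and 3.12 RPKM after induction. Of 8 osteoblast lineage genes, 2 rose and 2 fell with induction in WT by the adjusted p-value, and 1 rose and 5 fell in KO. Of all 15342 genes tested, 4855 rose and 5027 fell in WT, and 5577 rose and 5609 fell in KO. All 8 were lower in KO than in WT after induction (median -0.84 on the log2 scale), and 7 passed the adjusted p-value (22.9% of all genes). *Ptprc* and *Itgam*, which encode CD45 and CD11b, stayed at or below 0.127 and 0.356 RPKM. The sum of 10 macrophage and leukocyte markers nevertheless moved with genotype: 20.5 and 21.6 RPKM in undifferentiated WT, 11 and 10.0 in undifferentiated KO, 33.0 and 37.8 in differentiating WT, and 14.1 and 15.2 in differentiating KO libraries. *Lyz2* made up much of this sum, with 12.85 and 13.4 RPKM in undifferentiated WT and 3.425 and 3.187 RPKM in undifferentiated KO. Of the 9 that could be tested, 4 were called lower in undifferentiated KO (1.09% of all genes) and 6 in differentiating KO (1.95%). By the adjusted p-value 2 rose and 5 fell before induction (14.7% and 17.5% of all genes). After induction 1 rose and 8 fell (17.8% and 22.9%). *Cd14* went the other way, from 1.228 and 1.47 RPKM in undifferentiated WT to 2.588 and 2.184 RPKM in undifferentiated KO. The sum of 7 endothelial markers was 0.561 to 0.875 RPKM in undifferentiated and 2.73 to 4.88 RPKM in differentiating libraries. *Pecam1* and *Cdh5* stayed at or below 0.0843 RPKM. Both markers that could be tested, *Kdr* and *Tek*, were called higher with induction in WT (9.69% of all genes) and in KO (13.0%). The 4 globin genes examined were listed at 0 throughout. The part of the leukocyte, endothelial and osteoblast genes in the mitotic results was not tested.

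Promoter sequence was examined first because members that move together may carry common elements. The RefSeq promoters of GRCm38.p6 span 250 bases before to 50 bases after the start of transcription. They were available for 53 of the 59 genes of the mitotic roles, as 58 promoters. A CHR element (TTTGAA or TTCGAA, either strand) was found in 62.1% of these promoters, against 19.2% of all 32851 promoters. A CCAAT box (either strand) was found in 70.7%, against 37.4% of all promoters, and both elements together in 53.4%, against 7.52%. The other kinesins and *Cenpv* had 25 promoters, of which 12% held a CHR element and 8.0% held both. TTCGAA reads the same on both strands, and a CHR element and a CCAAT box can share a base at their ends. For 15 of the 58 promoters the RefSeq start lay more than 100 bases from the start of the gene in GENCODE; in the other 43 the share with a CHR element was 67.4%. These matches describe letters in a window and do not show binding.

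The stretch from 110 bases before to 30 bases after the start is printed for 4 members of the mitotic roles with both elements and for *Kif21a*, a transport kinesin with neither. Each is written 5′ to 3′ on the strand of the gene, with CHR elements and CCAAT boxes, in either orientation, in capitals. *Cdk1* (chr10:69352883-69353022, minus strand) encodes the mitotic kinase that pairs with cyclin B. *Cdc20* (chr4:118437314-118437453, minus strand) encodes an activator of the anaphase-promoting complex, and *Bub1* (chr2:127831830-127831969, minus strand) a checkpoint kinase at the kinetochore. *Kif11* (chr19:37376272-37376411, plus strand) encodes the motor that pushes the spindle poles apart, and *Kif21a* lies at chr15:91049922-91050061 on the minus strand.
Cdk1: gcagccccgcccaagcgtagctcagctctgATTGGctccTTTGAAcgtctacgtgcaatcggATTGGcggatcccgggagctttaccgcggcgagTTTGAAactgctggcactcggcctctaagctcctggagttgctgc
Cdc20: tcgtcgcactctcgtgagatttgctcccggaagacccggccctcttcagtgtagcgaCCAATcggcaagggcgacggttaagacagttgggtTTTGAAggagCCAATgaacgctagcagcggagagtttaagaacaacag
Bub1: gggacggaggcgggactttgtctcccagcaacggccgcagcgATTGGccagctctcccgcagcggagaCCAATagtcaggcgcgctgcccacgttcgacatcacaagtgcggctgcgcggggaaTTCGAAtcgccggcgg
Kif11: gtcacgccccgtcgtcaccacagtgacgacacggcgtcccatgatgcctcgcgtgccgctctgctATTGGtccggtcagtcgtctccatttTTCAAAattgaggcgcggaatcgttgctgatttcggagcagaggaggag
Kif21a: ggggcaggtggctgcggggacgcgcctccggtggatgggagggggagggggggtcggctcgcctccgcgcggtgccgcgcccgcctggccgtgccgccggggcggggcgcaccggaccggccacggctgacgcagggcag

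The shares differed between roles. A CHR element was present in 9 of 10 promoters of the mitotic kinesins (90.0%) and 7 of 9 of the checkpoint and anaphase genes (77.8%). It was present in 5 of 16 promoters of the centromere and inner kinetochore genes (31.2%). The latter more often held an E2F-type element (TTCCCGC, either strand), in 43.8% of promoters against 4.6% of all promoters. That share was close to the 40.0% found in 35 promoters of DNA replication genes, a list of 37 genes chosen for comparison. Counts per role are small, and those of the checkpoint genes hold overlapping windows of *Bub3*. Some starts lie far from the GENCODE start, such as *Cenpt* (1270 bases) of the inner kinetochore and *Kif2c* (3867 bases) of the kinesins.

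**Figure D1:**
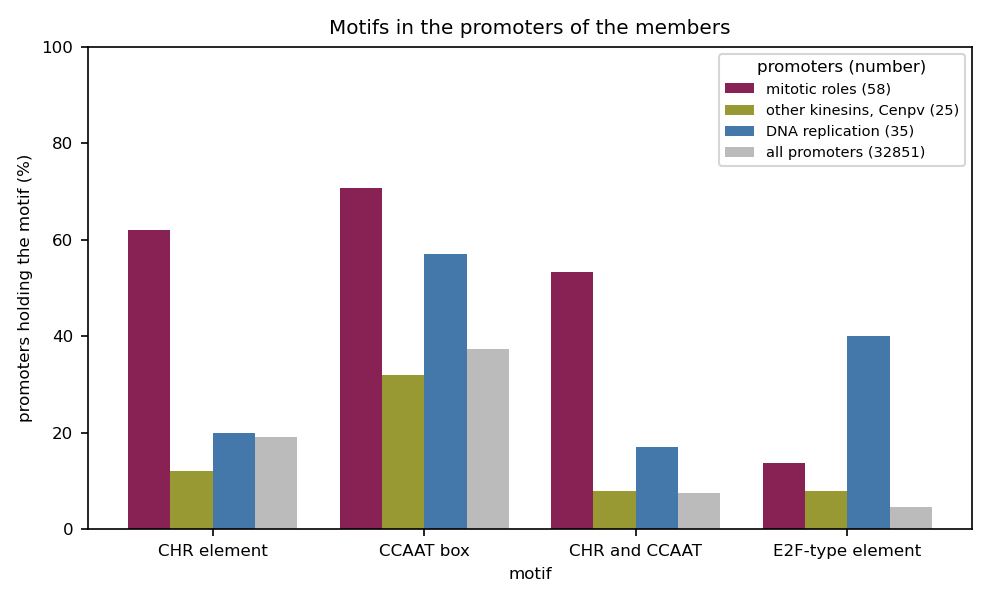
Share of promoters (%, vertical axis) that hold a CHR element, a CCAAT box, both, or an E2F-type element. Bars stand for the mitotic roles, the other kinesins with *Cenpv*, the DNA replication genes and all promoters, with the number of promoters in the key; both elements together occur in 53.4% of the promoters of the mitotic roles and 7.52% of all promoters.

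The 59 members of the mitotic roles followed a common order of levels across the groups. For 55 of them the mean RPKM was highest in undifferentiated KO, next in undifferentiated WT, lower in differentiating WT and lowest in differentiating KO MSCs. Their summed level was 815 and 837 RPKM for undifferentiated WT, 1042 and 1043 RPKM for undifferentiated KO, 512 and 556 RPKM in differentiating WT, and 352 and 296 RPKM in differentiating KO libraries. The 4 ranges did not overlap. The sum over the other kinesins and *Cenpv* was 266 and 267 RPKM in undifferentiated WT and 232 and 227 RPKM in differentiating KO libraries, a much narrower range. In bulk RNA, fewer dividing cells and less of these RNAs per cell cannot be told apart.

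**Figure D2:**
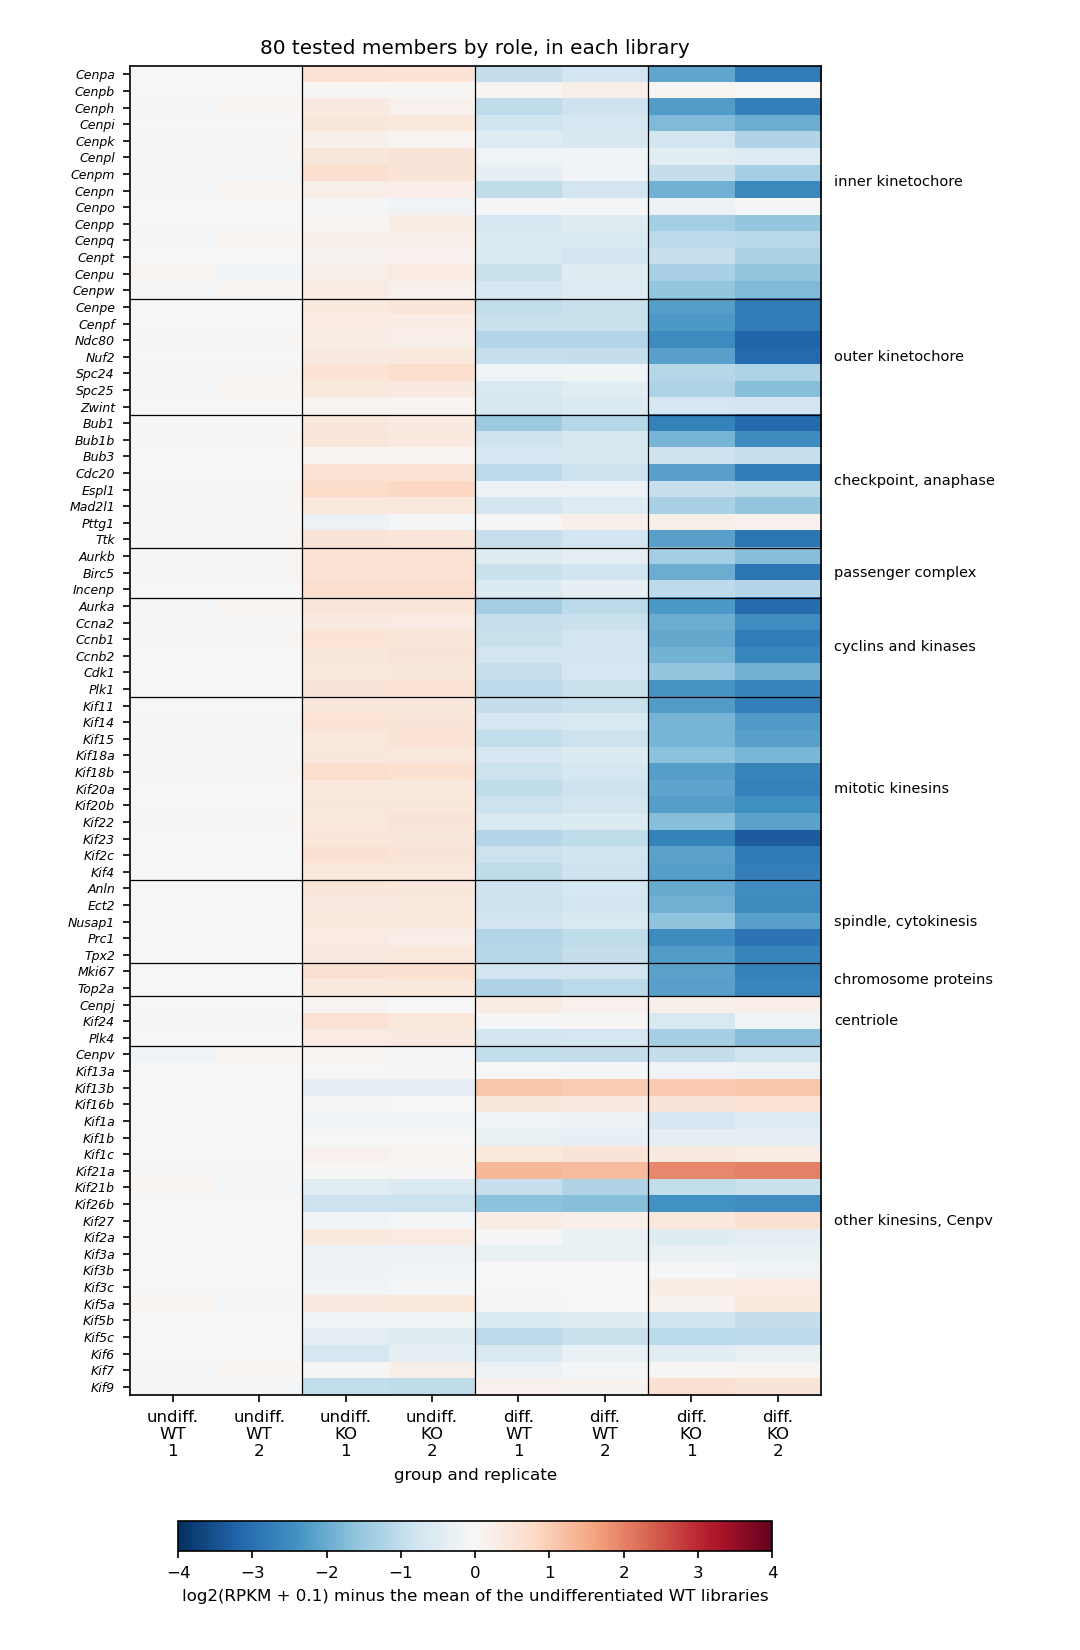
Level of the 80 tested members (rows, by role) in the 8 libraries (columns, by group and replicate), as log2(RPKM + 0.1) minus the mean of the undifferentiated WT libraries; red is higher and blue lower. Most rows of the mitotic roles are pale red in undifferentiated KO, pale blue in differentiating WT and dark blue in differentiating KO, whereas the other kinesins and *Cenpv* share no such order.

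Differences were tested with limma on log2(RPKM + 0.1) across 15342 genes, with Benjamini-Hochberg adjustment over all of them. A gene was called when its absolute log2 fold change was above 1 and its adjusted p-value under 0.05. The added 0.1 RPKM makes the fold changes of low genes smaller than their ratios.

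Before induction, the mitotic roles were slightly higher in KO than in WT MSCs. Of 59 members 57 were higher in KO, and for 56 both KO libraries lay above both WT libraries, as did 34.8% of all genes. The median log2 fold change was 0.43, or 1.35-fold in mean RPKM, beside a median of -0.003 over all genes tested. By the adjusted p-value 17 of the 59 rose and 0 fell, whereas over all genes 14.7% rose and 17.5% fell. None reached the fold limit (0.613% of all genes were called higher), and 30 were higher at an unadjusted p under 0.05. The number that rose depended on the settings. It was 29 with a pseudocount of 1, 47 when only the 4 undifferentiated libraries were fitted (15.3% of all genes), 44 without either differentiating KO library, and 4 or 5 when any undifferentiated library was left out.

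The largest rise was that of *Espl1*, which encodes separase, the protease that cuts cohesin at anaphase. Its undifferentiated libraries held 1.51 and 1.60 RPKM in WT and 2.66 and 2.83 RPKM in KO. The groups did not overlap, and KO was higher by 0.78 on the log2 scale (standard error 0.07, adjusted p = 0.0013). *Kif18b*, *Incenp*, *Spc24* and *Mki67* followed, with log2 fold changes of 0.65, 0.65, 0.62 and 0.60. All 3 genes of the chromosomal passenger complex were higher by 0.56 to 0.65 on the log2 scale, and *Aurkb* and *Incenp* passed the test. *Birc5* did not pass in limma (standard error 0.27, adjusted p = 0.158), although its undifferentiated libraries did not overlap between genotypes. Its standard error also draws on the differentiating KO libraries, at 5.95 and 3.07 RPKM.

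After 3 days of induction the direction was the opposite, and the difference larger. In differentiating MSCs 39 of the 59 members were called lower in KO than in WT, against 1.95% of all genes, and 0 were called higher (1.36% of all genes; 0 of the 59 were higher even at an unadjusted p under 0.05). Without the fold limit 53 fell, against 22.9% of all genes. The median log2 fold change was -1.32, so that the median member had 0.393 times its WT level, beside a median of -0.007 over all genes. For 57 members both KO libraries lay below both WT libraries, as did 37.1% of all genes. Called members were spread unevenly over the roles: all 11 mitotic kinesins, all 5 spindle assembly and cytokinesis genes and both chromosome proteins, then 5 of 6 cyclins and kinases, 5 of 7 outer kinetochore genes, 2 of 3 passenger genes, 4 of 8 checkpoint and anaphase genes, 5 of 14 inner kinetochore genes and 0 of 3 centriole genes. With a pseudocount of 1, which shrinks low values, 26 were called. When only the differentiating libraries were fitted, 35 were called and 43 fell by the adjusted p-value. The 6 members that did not pass even the adjusted p-value were *Cenpj*, *Cenpk*, *Cenpo*, *Kif24*, *Pttg1* and *Zwint*.

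**Figure D3:**
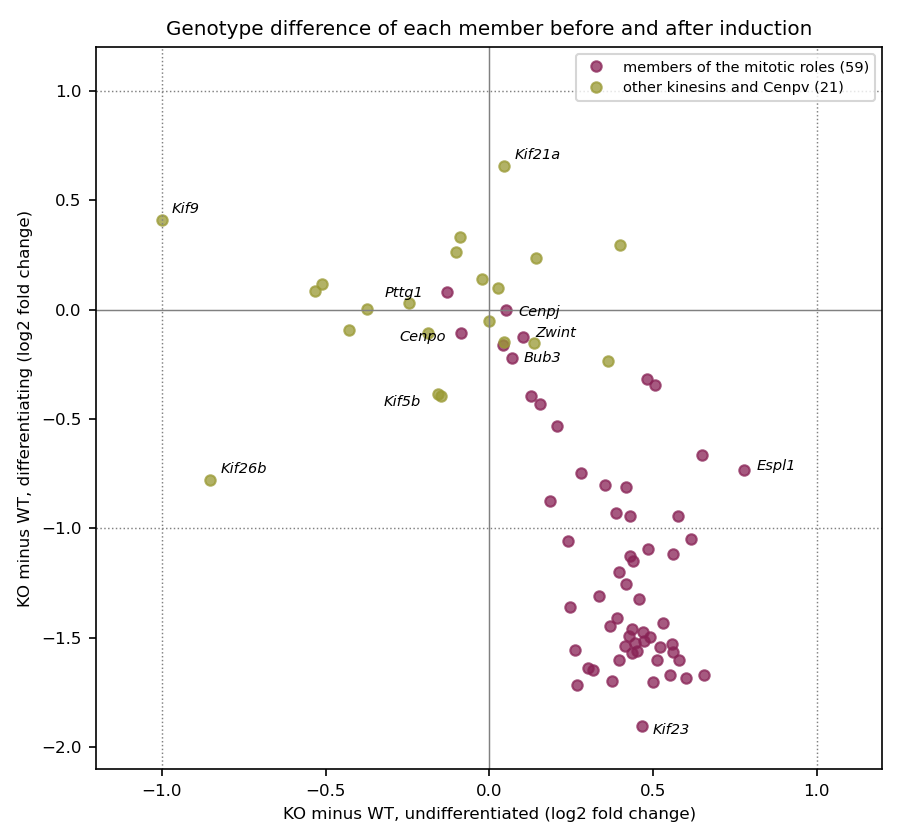
Log2 fold change of KO against WT for each of the 80 tested members in undifferentiated (horizontal) and differentiating MSCs (vertical); dotted lines mark the fold limit. Members of the mitotic roles lie mostly to the right of 0 and below it, down to *Kif23* at -1.90, whereas the other kinesins and *Cenpv* scatter around 0 on the vertical axis with a median of 0.03.

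Induction lowered the mitotic roles in both genotypes. In WT MSCs 51 of 59 fell by the adjusted p-value, against 32.8% of all genes. Only 7 were called past the fold limit: *Bub1*, *Aurka*, *Ndc80*, *Top2a*, *Kif23*, *Prc1* and *Tpx2*. Over all genes 4.63% were called lower and 9.69% higher, and 0 members of the mitotic roles were called higher, although *Cenpb* and *Cenpj* rose by the adjusted p-value and were the 2 higher at an unadjusted p under 0.05. The median log2 fold change in WT was -0.75, a ratio of 0.593. The count of 7 rose to 16 with quantile normalization, to 18 with median centring and to 13 without replicate 2 of differentiating WT. In KO MSCs 51 members were called lower, against 9.87% of all genes, and 0 higher (13.0% of all genes; *Pttg1* and *Cenpj* were the 2 higher at an unadjusted p under 0.05). The median log2 fold change there was -2.56, a ratio of 0.166.

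**Figure D4:**
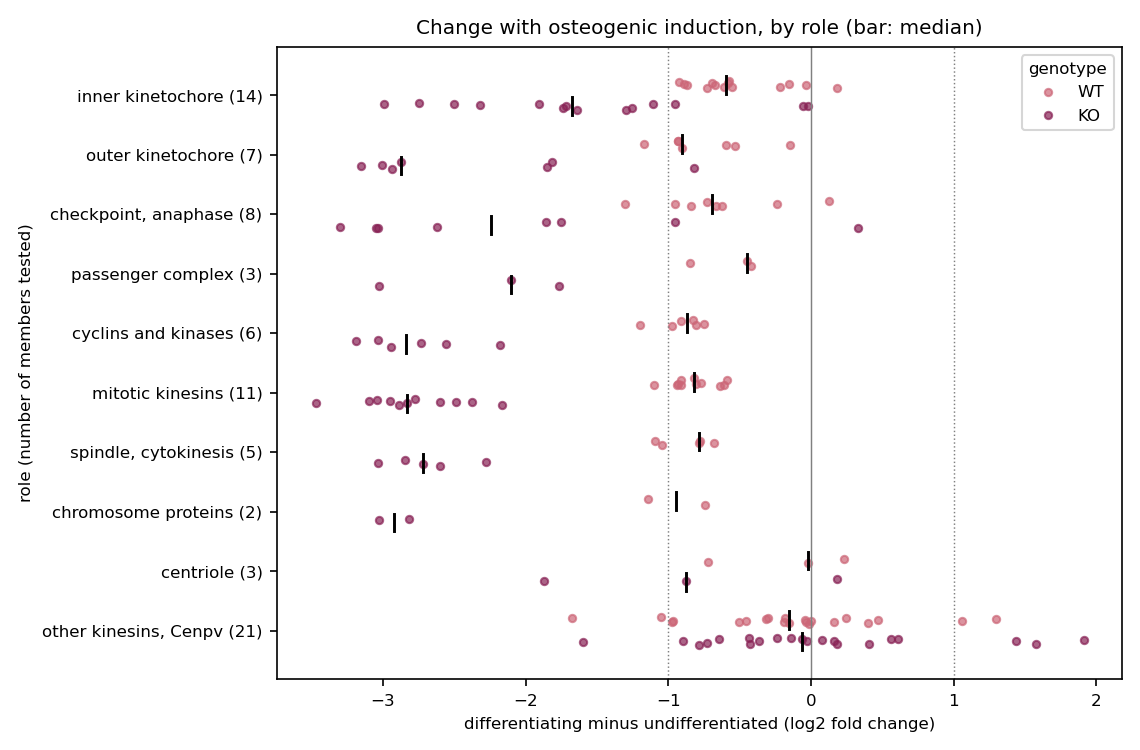
Log2 fold change of differentiating against undifferentiated MSCs (horizontal axis) for each tested member, by role and genotype; black bars are medians and dotted lines the fold limit. In every role from the inner kinetochore to the chromosome proteins the KO median lies left of the WT median, for example -2.83 against -0.82 in the mitotic kinesins.

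The genotype difference itself changed with state. In the interaction of genotype and state 48 of the 59 members were called lower, against 3.42% of all genes, and 0 were called higher, against 2.76%, with 0 higher at an unadjusted p under 0.05. The median of the interaction was -1.68 on the log2 scale. These comparisons share libraries, since the differentiating KO libraries enter the genotype comparison, the response of KO MSCs and the interaction, so their counts are not independent of each other.

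At the inner kinetochore, *Cenpa*, the histone H3 variant that marks the centromere, measured 12.9 and 12.7 RPKM in undifferentiated WT, 19.4 and 18.6 in undifferentiated KO, 6.55 and 7.44 in differentiating WT, and 3.00 and 1.75 in differentiating KO libraries. Its position in mm10 is chromosome 5, 30666777 to 30674830, plus strand. No group overlapped another, and the KO against WT log2 fold change in differentiating MSCs was -1.56 (standard error 0.22, adjusted p = 0.0038), the largest of this role. Other genes that build the platform on CENPA nucleosomes fell with it: *Cenph* (-1.56), *Cenpn* (-1.36), *Cenpi* (-1.15) and *Cenpw* (-1.06) were called as well. *Cenpl*, *Cenpm*, *Cenpp*, *Cenpq*, *Cenpt* and *Cenpu* fell by 0.32 to 0.95 on the log2 scale without being called, and *Cenpb* by 0.16. *Cenpk* differed by -0.40 and did not pass (adjusted p = 0.082). *Cenpu* and *Cenpm* had as few as 46 estimated reads in a library, so their folds are less precise.

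In the outer kinetochore, *Ndc80* encodes a subunit of the complex that holds the microtubule ends. It measured 9.89 and 10.5 RPKM in undifferentiated WT, 12.5 and 12.1 in undifferentiated KO, 4.50 and 4.48 in differentiating WT, and 1.65 and 1.02 in differentiating KO libraries. *Cenpe*, a kinesin that brings chromosomes to the spindle equator, measured 8.30 and 8.17, 10.9 and 11.5, 4.14 and 4.40, and 1.69 and 1.11 RPKM in the same order of groups. Both had 4 groups that did not overlap, and both were called lower in differentiating KO, by -1.71 (standard error 0.19, adjusted p = 0.0019) for *Ndc80* and -1.57 (standard error 0.17, adjusted p = 0.0018) for *Cenpe*. Of the partners of NDC80, *Nuf2* differed by -1.70 and *Spc24* by -1.05, both called, and *Spc25* fell by 0.93 on the log2 scale. *Cenpf*, a large protein of the kinetochore corona, was also called (-1.65). *Zwint*, a link between the kinetochore and checkpoint proteins, did not pass: it measured 45.9 and 49.7 RPKM in differentiating WT and 45.3 and 42.3 RPKM in differentiating KO libraries (adjusted p = 0.094).

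Among the checkpoint and anaphase genes, *Ttk*, the kinase at the head of the spindle checkpoint, had the largest difference. It measured 3.79 and 4.07 RPKM in undifferentiated WT, 5.68 and 5.51 in undifferentiated KO, 2.05 and 2.25 in differentiating WT, and 0.793 and 0.433 in differentiating KO libraries. *Bub1* went from 6.40 and 6.32 to 2.24 and 2.84 RPKM with induction in WT, and from 8.69 and 8.14 to 0.892 and 0.649 RPKM in KO. *Cdc20* went from 29.1 and 29.8 to 14.1 and 16.3 RPKM in WT, and from 44.1 and 42.6 to 6.49 and 4.16 RPKM in KO. For each of these 3 genes the libraries of the 4 groups kept apart, and the KO against WT log2 fold changes in differentiating MSCs were -1.70, -1.60 and -1.53 (adjusted p = 0.0031, 0.0014 and 0.0028). *Bub1b*, which encodes the checkpoint protein BUBR1, was called at -1.46.

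*Mad2l1*, whose protein blocks CDC20, measured 15.5 and 16.3 RPKM in undifferentiated WT, 21.1 and 21.3 in undifferentiated KO, 9.57 and 10.9 in differentiating WT, and 6.38 and 5.26 in differentiating KO libraries. It fell by 0.81 on the log2 scale in differentiating KO (standard error 0.10, adjusted p = 0.0027), short of the fold limit, as did *Espl1* (by 0.73) and *Bub3* (by 0.22). *Pttg1* encodes securin, the inhibitor of separase. It stood apart from the list, with 27.0 and 29.1 RPKM in undifferentiated WT, 24.0 and 27.4 in undifferentiated KO, 28.9 and 32.4 in differentiating WT, and 33.3 and 31.4 in differentiating KO libraries. The differentiating libraries of both genotypes overlapped for *Pttg1*, and its rise with induction in KO MSCs (0.33 on the log2 scale, adjusted p = 0.013) ran against that of its target *Espl1*, which fell by 1.75.

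Of the chromosomal passenger complex, which corrects faulty attachments, *Birc5* encodes survivin. It measured 23.1 and 24.5 RPKM in undifferentiated WT, 35.3 and 35.9 in undifferentiated KO, 12.7 and 13.8 in differentiating WT, and 5.95 and 3.07 in differentiating KO libraries. *Aurkb*, its kinase, measured 5.78 and 6.06, 8.73 and 8.82, 4.19 and 4.61, and 2.24 and 1.74 RPKM in the same order. Groups did not overlap for either gene, and both were called lower in differentiating KO, at -1.60 (standard error 0.27, adjusted p = 0.0069) and -1.12 (standard error 0.12, adjusted p = 0.0015). The error was wider for *Birc5*, for which the differentiating KO libraries lay farther apart. *Incenp*, the scaffold, fell by 0.66 on the log2 scale.

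**Figure D5:**
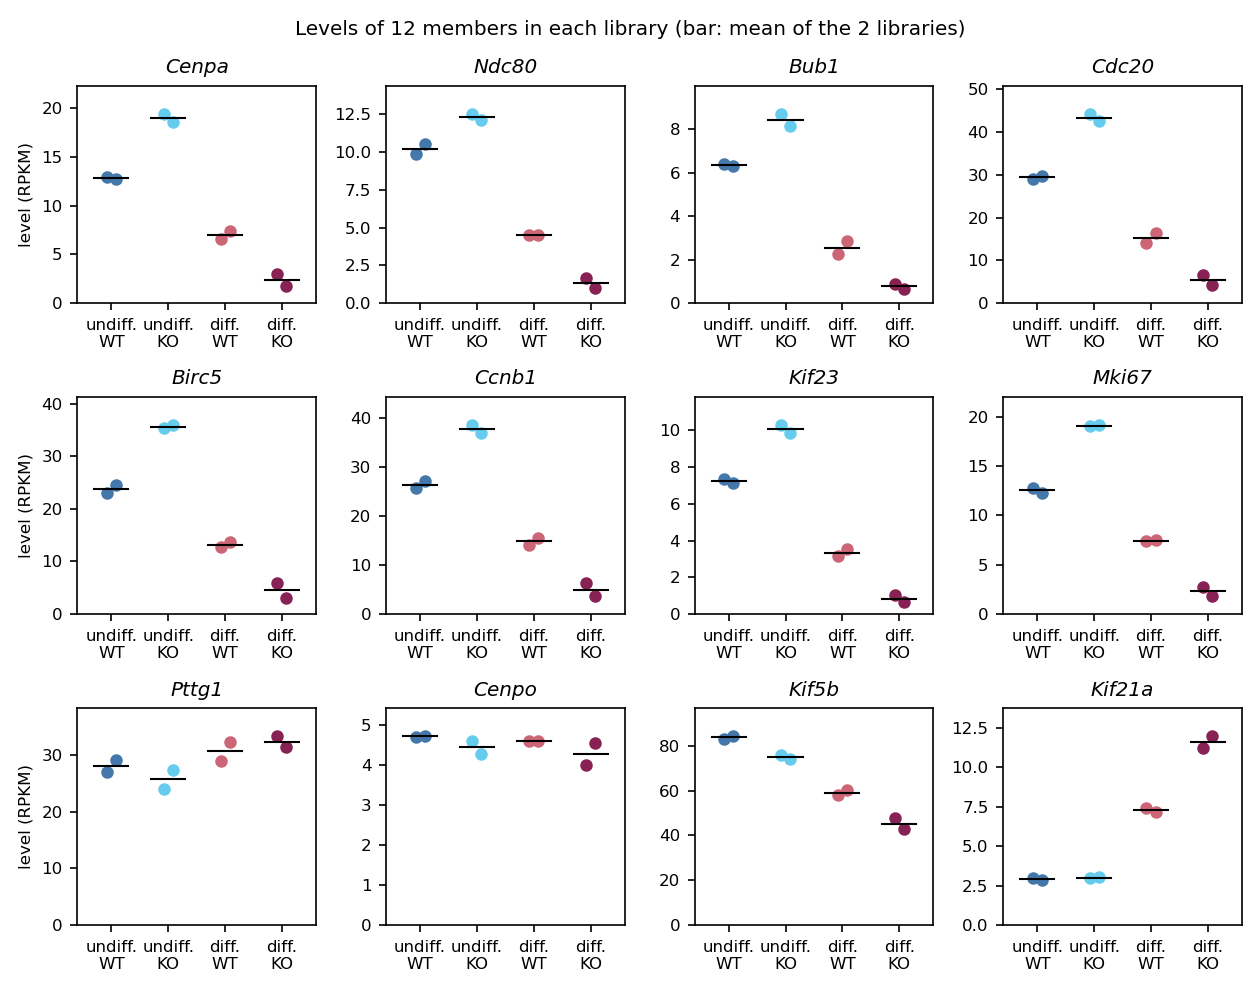
Level (RPKM, vertical axes starting at 0) of 12 members in each library of the 4 groups; points are libraries and bars the mean of 2 libraries. *Cenpa* to *Mki67* share the order of groups, with differentiating KO lowest, whereas *Pttg1* and *Cenpo* change little, *Kif5b* is lower in KO in both states and *Kif21a* is highest in differentiating KO at 11.2 and 11.9 RPKM.

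The cyclins and kinases that drive entry into mitosis followed. *Ccnb1* (mm10 chromosome 13, 100778650 to 100786570, minus strand), which encodes cyclin B1, measured 25.7 and 27.0 RPKM in undifferentiated WT, 38.4 and 36.9 in undifferentiated KO, 14.1 and 15.6 in differentiating WT, and 6.27 and 3.69 in differentiating KO libraries. Its log2 fold change in differentiating KO was -1.60 (standard error 0.22, adjusted p = 0.0036), and *Ccnb2* was called at -1.51. Both cyclins have a pseudogene by name, so reads may be divided between copies. *Ccna2*, cyclin A2, measured 30.6 and 29.0, 37.9 and 37.4, 15.5 and 16.0, and 7.54 and 5.29 RPKM in the same order, and was called at -1.31.

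*Cdk1* measured 22.6 and 23.2 RPKM in undifferentiated WT, 30.7 and 31.2 in undifferentiated KO, 12 and 14.3 in differentiating WT, and 7.54 and 6.04 in differentiating KO libraries. It fell by 0.94 on the log2 scale (standard error 0.12, adjusted p = 0.0028) and was the only one of the 6 genes short of the fold limit there. *Plk1*, the kinase that prepares the spindle poles and the division plane, measured 10.0 and 9.78, 14.1 and 14.5, 4.71 and 5.33, and 1.86 and 1.47 RPKM. *Aurka*, the kinase of the spindle poles, measured 15.9 and 17.5, 23.5 and 23.4, 6.51 and 7.98, and 3.28 and 1.88 RPKM. All 3 kinases had 4 groups that did not overlap, and *Plk1* and *Aurka* were called lower in differentiating KO at -1.54 and -1.5 (adjusted p = 0.00079 and 0.0058).

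All 11 mitotic kinesins were called lower in differentiating KO, over a range of -1.90 to -1.09 on the log2 scale. *Kif23*, the central spindle motor needed for cytokinesis, had the largest genotype difference of all members in differentiating MSCs. It measured 7.37 and 7.16 RPKM in undifferentiated WT, 10.3 and 9.88 in undifferentiated KO, 3.14 and 3.53 in differentiating WT, and 1.04 and 0.639 in differentiating KO libraries. The groups were well apart, and KO against WT after induction gave -1.90 on the log2 scale (standard error 0.19, adjusted p = 0.0014). With induction *Kif23* fell by 1.10 in WT and by 3.47 in KO, down to 0.0833 times its undifferentiated KO level. Its position in mm10 is chromosome 9, 61915905 to 61946774, minus strand.

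*Kif11* measured 10.9 in both undifferentiated WT libraries, 15.1 and 14.8 RPKM in undifferentiated KO, 5.55 and 5.78 in differentiating WT, and 2.24 and 1.53 in differentiating KO libraries. *Kif20a*, which moves passenger proteins to the central spindle, measured 20.7 and 21, 28.1 and 28.1, 10.4 and 11.8, and 4.79 and 3.12 RPKM. Neither gene had overlapping groups, and the log2 fold changes in differentiating KO were -1.56 and -1.49 (adjusted p = 0.0014 and 0.0025). The other mitotic kinesins were called at values from -1.09 (*Kif15*, a spindle motor that acts beside *Kif11*) to -1.67 (*Kif18b* and *Kif2c*, which shorten microtubules). *Kif4* and *Kif22*, motors that sit on chromosome arms, gave -1.54 and -1.32; each has a pseudogene by name. The interaction was called for all 11.

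Spindle assembly and cytokinesis genes behaved alike. *Prc1*, which bundles the microtubules of the central spindle, measured 29.2 and 30.1 RPKM in undifferentiated WT, 37.4 and 35.7 in undifferentiated KO, 13.1 and 14.6 in differentiating WT, and 5.10 and 3.77 in differentiating KO libraries. It was called lower in differentiating KO at -1.64 (standard error 0.14, adjusted p = 0.00096). The scaffold gene *Anln*, the Aurora A activator *Tpx2* and the microtubule binder *Nusap1* were called at -1.47, -1.41 and -1.2. Of the chromosome proteins, *Mki67*, which coats mitotic chromosomes and is the usual proliferation marker, measured 12.8 and 12.3, 19.0 and 19.1, 7.36 and 7.52, and 2.74 and 1.84 RPKM in the order above. *Top2a*, the topoisomerase that untangles sister chromatids, measured 40.5 and 40.6, 53.7 and 54.7, 17.6 and 19.1, and 8.87 and 6.54 RPKM. Their groups did not overlap, and both were called lower in differentiating KO, at -1.68 and -1.26 (adjusted p = 0.0013 and 0.0016).

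Of the centriole genes, 0 of 3 were called between genotypes in differentiating MSCs, and 1, *Plk4*, was lower at an unadjusted p under 0.05 in limma. *Plk4*, the kinase that starts centriole duplication, measured 8.60 and 8.97 RPKM in undifferentiated WT, 11.1 and 11.4 in undifferentiated KO, 5.20 and 5.38 in differentiating WT, and 3.42 and 2.62 in differentiating KO libraries. It fell by 0.80 on the log2 scale in differentiating KO (standard error 0.11, adjusted p = 0.0038). *Cenpj*, which sets centriole length, measured 2.26 and 2.33, 2.48 and 2.29, 2.81 and 2.62, and 2.67 and 2.75 RPKM, with overlap between the genotypes in both states. It rose with induction by 0.23 in WT and 0.18 in KO on the log2 scale (adjusted p = 0.019 and 0.042). *Kif24*, a motor at the centriole, differed by -0.35 in differentiating KO (adjusted p = 0.17).

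The 4 members of the mitotic roles outside the common order were *Pttg1*, *Cenpj*, *Cenpb* and *Cenpo*. *Cenpb*, whose protein binds satellite repeats at the centromere, was the most abundant of the 59, with 74.7 and 77.0 RPKM in undifferentiated WT, 78.4 and 78.0 in undifferentiated KO, 82.5 and 89.7 in differentiating WT, and 79.3 and 74.5 in differentiating KO libraries. Its exons overlap those of *Spef1* on the same strand, so reads of the latter may add to it. *Cenpo*, of the inner kinetochore, measured 4.71 in both undifferentiated WT libraries, 4.60 and 4.28 RPKM in undifferentiated KO, 4.58 and 4.60 in differentiating WT, and 4.00 and 4.55 in differentiating KO libraries. No comparison of *Cenpo* passed the test, while its complex partners *Cenpp*, *Cenpq* and *Cenpu* fell in both genotypes with induction. *Bub3* and *Zwint*, at 27.4 to 55.1 and 42.3 to 77.7 RPKM, kept the common order with small steps between genotypes. With induction the mean of *Bub3* went from 52.4 to 33.1 RPKM in WT and from 55.0 to 28.4 RPKM in KO. That of *Zwint* went from 72.1 to 47.8 RPKM in WT and from 77.4 to 43.8 RPKM in KO.

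The other kinesins and *Cenpv* share the symbols. Their genotype differences in differentiating MSCs ranged from -0.78 (*Kif26b*) to 0.66 (*Kif21a*) on the log2 scale. Among the 21 tested, 0 were called between genotypes in differentiating MSCs (5 higher and 7 lower at an unadjusted p under 0.05 in limma), where 1.36% of all genes were called higher and 1.95% lower. By the adjusted p-value 3 rose and 5 fell, against 17.8% and 22.9% of all genes, and the median log2 fold change was 0.03. In undifferentiated MSCs the median was -0.10. There 1 rose and 6 fell by the adjusted p-value, against 14.7% and 17.5% of all genes, and 1 was called lower, against 1.09%. The gene that rose was *Kif2a*, at 10.6 and 10.1 RPKM in undifferentiated WT, 13.7 and 13.1 in undifferentiated KO, 9.73 and 8.54 in differentiating WT, and 7.35 and 8.12 in differentiating KO libraries. Its group means had the order common to the mitotic roles, with a log2 fold change of 0.36 before induction (adjusted p = 0.017) and -0.24 afterwards (adjusted p = 0.054). *Kif5b*, the heavy chain of conventional kinesin with the highest mean of the 37 *Kif* genes over all libraries, measured 83.2 and 84.3 RPKM in undifferentiated WT, 75.9 and 74.2 in undifferentiated KO, 57.9 and 60.1 in differentiating WT, and 47.7 and 42.8 in differentiating KO libraries. Its groups did not overlap, but KO lay below WT in both states. In the differentiating libraries *Kif1c* was higher still, at 60.3 to 70.5 RPKM. The drop of *Kif5b* by 0.38 on the log2 scale in differentiating KO passed in limma (standard error 0.05, adjusted p = 0.0037).

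With induction 2 of the 21 were called higher and 2 lower in WT MSCs, where 9.69% of all genes were called higher and 4.63% lower. In KO MSCs 3 were called higher and 1 lower, against 13.0% and 9.87% of all genes. *Kif26b*, an atypical family member without motor activity, measured 8.09 and 7.77 RPKM in undifferentiated WT, 4.37 and 4.32 in undifferentiated KO, 2.46 and 2.36 in differentiating WT, and 1.39 and 1.35 in differentiating KO libraries. It fell with genotype by 0.85 and 0.78 on the log2 scale in the undifferentiated and differentiating state (adjusted p = 0.00035 and 0.00062) and was called lower with induction in both genotypes, at -1.68 and -1.60. The interaction for *Kif26b* was 0.08 (adjusted p = 0.42). *Kif21b*, a relative of *Kif21a*, was called lower with induction in WT (-1.05).

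*Kif21a*, a motor that limits microtubule growth, rose instead. It measured 2.99 and 2.82 RPKM in undifferentiated WT, 2.98 and 3.02 in undifferentiated KO, 7.42 and 7.16 in differentiating WT, and 11.2 and 11.9 in differentiating KO libraries. Induction raised it by 1.30 in WT and 1.91 in KO on the log2 scale (both called), and in differentiating KO it was 0.66 above WT (standard error 0.05, adjusted p = 0.00093). *Kif13b*, a cargo motor, was likewise called higher with induction, going from 5.32 and 5.33 to 11.6 and 10.8 RPKM in WT and from 4.18 and 4.00 to 11 and 11.5 RPKM in KO. Its differentiating libraries overlapped between genotypes.

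*Kif9*, a kinesin of motile cilia, was the only member called between genotypes before induction. It measured 1.24 and 1.18 RPKM in undifferentiated WT, 0.563 and 0.549 in undifferentiated KO, 1.39 and 1.35 in differentiating WT, and 1.92 and 1.79 in differentiating KO libraries. In undifferentiated KO it differed by -1.0 on the log2 scale (standard error 0.07, adjusted p = 0.00065), just past the fold limit, and the call was lost with a pseudocount of 1 and without replicate 1 of undifferentiated WT or replicate 2 of undifferentiated KO. In differentiating KO it rose by 0.41 (adjusted p = 0.0077), and it was the only member with a called positive interaction (1.41). With a pseudocount of 1 the interaction was 0.78 and no longer past the fold limit. Ciliary motors that act as a pair, *Kif3a* and *Kif3b*, fell by 0.24 and 0.19 in undifferentiated KO.

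The 5 members not tested were *Kif12* and *Kif2b*, listed at 0 in all libraries, and *Kif17*, *Kif19a* and *Kif26a*, with means under 0.1 RPKM. Some values of 0 may stand for failed estimates, since 100 genes were at 0 in both libraries of a group and at 1 RPKM or more in both of another. *Kif17* overlaps *Sh2d5* on the same strand.

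Among the 53 genes of the mitotic roles with a promoter sequence, the 33 with a CHR element had a median log2 fold change of -1.5 in differentiating KO against WT, and 26 were called lower. The 20 without it had a median of -0.81, and 8 were called. Ranges overlapped widely, from -1.90 to -0.22 with the element and from -1.70 to 0.08 without, and *Birc5*, called at -1.60, had neither a CHR element nor a CCAAT box in the window. All 3 elements were absent from the *Pttg1* window too, but the RefSeq start used there lies 270 bases from the GENCODE start. *Cenpj*, *Cenpt*, *Cenpq*, *Cenpo* and *Mad2l1*, also without a CHR element and not called, have starts 3579, 1270, 473, 329 and 169 bases away. Genes with the element and distant starts include *Kif2c* (3867), *Kif14* (1505), *Kif4* (328) and *Cenpa* (109), all called. They also include *Cenpm* (412) and *Bub3* (148 and 272), which were not called. The element also went with role: 31.2% of inner kinetochore promoters held it, with 5 of 14 genes called, and 90.0% of mitotic kinesin promoters, with all 11 called. The part of each was not tested.

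Mitotic genes that are not members moved in the same directions. The 56 such genes examined include condensin subunits, the MIS12 complex and the regulators *Foxm1* and *Mybl2*, and were chosen with earlier results of these data known. In differentiating KO 28 were called lower (1.95% of all genes), with a median log2 fold change of -1.01. For the interaction 41 were called lower (3.42% of all genes). The 37 DNA replication genes, active earlier in the cycle, had 6 called lower in differentiating KO with a median of -0.67, and 23 in the interaction. The same 1.95% and 3.42% of all genes stand beside these counts. Before induction 32 of the 56 and 27 of the 37 rose in KO by the adjusted p-value, against 14.7% of all genes. Among the mitotic roles 17 of 59 did. The medians of 0.41 and 0.46 were close to the 0.43 of the mitotic roles. Induction in WT lowered the replication genes by a median of 0.47 on the log2 scale, and the mitotic roles by 0.75. Whether the lists differ was not tested.

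The 2 libraries of differentiating KO MSCs differed more than those of the other groups, and in a common direction. Replicate 1 lay above replicate 2 for 56 of the 59 members of the mitotic roles, with a median difference of 0.43 on the log2 scale. In the remaining groups this median lay between -0.12 and 0.01, and over all genes of the differentiating KO libraries it was 0.02. The other kinesins and *Cenpv* showed -0.03 there. A smaller common direction was seen in differentiating WT, where replicate 2 lay above replicate 1 for 50 of the 59 (median -0.12). In undifferentiated WT it did so for 43 (median -0.04). Both differentiating KO libraries still lay below both differentiating WT libraries in 57 of 59 members. Without replicate 1 the median genotype difference in differentiating MSCs was -1.56 with 42 called, and without replicate 2 it was -1.06 with 35 called.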

How the data were processed

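The libraries were strand-specific and depleted of ribosomal RNA. The authors aligned single-end reads to mm10 with TopHat2 2.1.0 and computed gene values with Cuffdiff (Cufflinks 2.2.1), per the submitters' processing notes and the paper's methods; the library normalization is not given in the sources used here. The deposited table holds an RPKM value for each gene in each library, and no replicates were merged. All 8 columns matched a sample label, and 0 columns of per-sample values were left without a sample.

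From these values log2(RPKM + 0.1) was computed for 15342 genes whose mean reached 0.1 RPKM. With limma 3.58.1 (R 4.3.3) the 8 libraries were fitted with a mean per group and a variance trend (4 residual and 1.98 prior degrees of freedom). P-values were adjusted over all genes (Benjamini-Hochberg). Called genes passed an adjusted p-value limit of 0.05 and a fold limit of 1 on the log2 scale. On simulated data for KO against WT in differentiating MSCs, made from these libraries with 15216 genes, 196 of 200 changed genes were recovered among 198 calls. Every planted change lay past the fold limit, and the noise was independent between genes and equal across groups. Smaller changes, the wider spread of differentiating KO and shifts shared by many genes were not simulated. The simulation therefore checks the code and not the calls made here.

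RPKM carries no depth, so reads were estimated from steps between low values. At the depths chosen, 73.2% to 76.8% of low values came out whole, too few for a count test. An arbitrary depth would give 10% by chance. Depth and the length subtracted from each transcript were picked for a high share, so the 10% is no fair comparison. Replicates differed beyond sampling noise (chi-square per gene of 2.83 to 19.3) and were counted separately. Promoters are from RefSeq, positions from GENCODE. Python 3.11.15, pandas 2.3.3, numpy 2.4.6 and matplotlib 3.10.9 were used.

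The members, role groups and lists were chosen with earlier results of these data known. Genes given in every library are representatives of each role, those with the largest genotype difference in a role, those called against the majority, and those called before induction or not tested; any further gene was picked with its values in view. Alternatives covered the pseudocount, minimum, scaling, variance trend, replicate block, fold limit, libraries fitted and each library left out. A fit without the 100 genes at 0 in a group was added after seeing the data. Supplementary gene lists of the paper were not used here.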

Additional observations from a re-analysis of the deposited data

Results flagged for a closer look

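With 2 libraries per group no outlying library could be looked for. For 22 of the genes given in every library the difference between KO and WT changed with state, by a called interaction term (the genotype difference in differentiating minus that in undifferentiated MSCs, on the log2 scale). It was lowest for *Kif23* (-2.37), *Mki67* (-2.28), *Ttk* (-2.20), *Birc5* (-2.18), *Cenpa* (-2.12), *Ccnb1* (-2.11), *Cdc20* (-2.09) and *Plk1* (-2.06). *Kif11* and *Cenpe* gave -2.01 each, *Bub1* -2.0, *Aurka* -1.99, *Ndc80* -1.98, *Prc1* -1.94 and *Kif20a* -1.92. Smaller values belonged to *Aurkb* (-1.68), *Top2a* (-1.67), *Ccna2* (-1.64), *Cdk1* (-1.37), *Mad2l1* (-1.23) and *Plk4* (-1.15). *Kif9* alone had a positive value, 1.41. For the 21 negative genes KO was above WT before induction and below it afterwards, and in *Kif9* the reverse was seen. All of these values rest on the same 8 libraries.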

How the results depend on the processing

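Over all 80 tested members, 1 was called in undifferentiated and 39 in differentiating KO against WT, 11 and 55 with induction in WT and KO, and 49 in the interaction. With no fold limit these were 24, 61 and, for induction in WT, 65. With a pseudocount of 1 the first count was 0 and induction in WT gave 7; quantile normalization gave 21 and median centring 23 for the latter (1 higher and 20 lower, and 1 higher and 22 lower, against 2 higher and 9 lower), where median centring shifted the median of all genes by -0.10. Leaving out a library gave 0 to 1, 35 to 42, 10 to 17 (17 without replicate 2 of differentiating WT), 55 to 57 and 47 to 49. The interaction and induction in KO stayed within 1.5 times under all alternatives run, as did the added fit without genes at 0. The replicate block gave 1, 39, 11, 55 and 49. Deviations of same-numbered libraries correlated at -0.09 to 0.03 between groups. With 2 libraries per group this cannot tell whether libraries of the same number share a cell mix or batch. Among single genes, values near 0 changed sign: *Kif21a* before induction (-0.000945) and *Kif9* with induction in WT (-0.13) under quantile normalization, and *Kif13b* in differentiating KO under median centring (-0.000957), and without replicate 2 of differentiating WT (-0.0459) or KO (-0.0289), within a range of -0.0459 to 0.0523 when any library was left out. None of these 5 values passed the test, the causes were not tested, and of the other values of named genes 2196 kept their direction and side of the threshold, 62 passed it newly and 51 no longer. With 2 libraries per group, a lone library was assumed to vary like the other groups. Estimated depth limits the low members, with 46 reads at the least in the mitotic roles.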
